A study of Mus musculus with 20 samples.

Results

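The 10 genes followed here encode coat and associated proteins of the lipid droplet, namely Cidea, Cideb, Cidec, Plin2, Plin3, Plin4, Plin5, Hilpda, Fitm1 and Fitm2. They were taken by gene symbol from the 22298 genes listed in each of 20 liver libraries. All 10 were found in every library, and all 10 were among the 12342 genes that passed the filter on low counts. The livers were those of male Lepr db/db mice, whose leptin receptor is defective so that they grow obese and diabetic. An AAV8 vector was injected into the tail vein of all 20 at 5 weeks of age. It carried a non-targeting shRNA in the Vec groups, and 4 shRNAs in 1 vector against Pparg in the shRNA groups (labelled PPAR knockdown). They then received sodium carboxymethyl cellulose as vehicle or benzbromarone (BBR, a uricosuric drug) in that vehicle, gavaged every day for 4 weeks at a dose of 25 mg per kg. The 4 groups of 5 are Vec (labelled control), Vec+BBR, shRNA and shRNA+BBR, and the livers were taken after a 6 h fast. The promoter that drives the shRNAs is not given in the sources used here, and a liver library holds every cell type of the tissue. The labels do not state that the 5 libraries of a group are separate animals. They are treated as 5 mice, and p-values measure the spread between them, which may be in part technical.

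A lipid droplet is a core of triglyceride and sterol ester under a single layer of phospholipid, and the proteins on that layer set how the droplet grows and how its lipid is released. The CIDE proteins sit where droplets touch and move lipid from the smaller into the larger one, and CIDEB, the family member of normal hepatocytes, also takes part in loading lipid onto very low-density lipoprotein. The perilipins cover the surface and limit the access of lipases, HILPDA inhibits the lipase ATGL, and the FITM proteins of the endoplasmic reticulum act when droplets form. Pparg encodes PPARγ, a nuclear receptor of adipocytes whose expression in liver is raised in obesity, and Cidec and Plin2 are textbook targets of PPAR receptors. PPAR receptors bind DNA as a pair with RXR, at a direct repeat of a hexamer spaced by 1 base.

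The libraries held between 17432904 and 25024099 counts (median 21409860), and a count of 3, taken as the floor, corresponded to between 0.121 and 0.193 CPM (counts scaled to library size by the TMM method). Levels below are such CPM unless FPKM is named. Hepatocyte markers were abundant in every library, with a summed level between 87301 and 147397 CPM for the 7 of 8 listed genes that the files hold. Of the 6 white adipocyte markers, Adipoq, Lep and Plin1 had at most 2, 0 and 1 counts in 19 of the libraries, and Ucp1 of brown adipocytes was at 0 in all 20. The others, Cfd, Retn and Adrb3, had up to 119, 13 and 5 counts, and Cfd was higher with BBR (below). Vec+BBR replicate 3 stood apart with 10, 11 and 3 counts of Adipoq, Lep and Plin1. It also had 68, 50 and 79 counts of the skeletal muscle genes Acta1, Ckm and Myh4, which had at most 6, 0 and 1 counts elsewhere. Results that include this mouse are given with and without it where the call changed.

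Pparg, the gene targeted by the shRNAs, was lower in both shRNA groups than in their vector controls. It had 16.4, 20.1, 35.9, 19.4 and 32.1 CPM in Vec replicates 1 to 5 and 7.31, 6.53, 5.96, 3.24 and 5.63 CPM in shRNA replicates 1 to 5, with no overlap and a log2 difference of −2.12 (standard error 0.28, edgeR adjusted p = 4.47e-05). With BBR it had 34.8, 29.8, 28.0, 28.1 and 38.3 CPM in the vector mice and 11.4, 9.99, 21.8, 18.9 and 7.19 CPM in the knockdown mice, again with no overlap and a log2 difference of −1.20 (standard error 0.26, edgeR adjusted p = 0.00843). Among the knockdown mice Pparg was higher with BBR, with a log2 difference of 1.28 (standard error 0.28, edgeR adjusted p = 0.00773). The groups overlapped there, with shRNA+BBR replicate 5 (7.19 CPM) below shRNA replicate 1 (7.31 CPM). In vector mice the BBR difference of 0.36 (standard error 0.26, edgeR adjusted p = 0.372) did not pass. The BBR effect was not shown to differ between the arms (difference 0.92, standard error 0.38, edgeR adjusted p = 0.208). Against Vec, Pparg in shRNA+BBR gave −0.84 (standard error 0.26, edgeR adjusted p = 0.0420) on the log2 scale, and this call was lost in 12 of 28 alternative analyses.

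Promoter windows are shown because the members moved to different extents, and because Cidec and Plin2 also followed Pparg from mouse to mouse (below). RefSeq windows of 300 bases (250 before to 50 after a gene's start, GRCm38.p6) were searched on both strands for AGGTCANAGGTCA, the direct repeat spaced by 1 base, counting mismatches over its 12 fixed letters. A match with at most 2 mismatches was present in 3.86% of 32851 windows, with at most 3 in 24.6% and with at most 4 in 79.8%. The best match of the Plin2 window had 2 mismatches. That of 1 of the 2 Cidec windows had 3, as had those of Fitm1, Cideb, Plin3 and both Plin5 windows. Those of Plin4, the other Cidec window and both Hilpda windows had 4, and that of Fitm2 had 5. No window of Cidea was searched. The stretches of 41 bases around the best match are given 5′ to 3′ on the gene's own strand, with the match in capitals. Plin2 and Cidec stand for members called higher with BBR in both vector arms, and Fitm1 for a member called higher only in knockdown mice. Plin5 stands for a member called in neither arm.
Plin2, chr4:86670258-86670298, minus strand, repeat read on the opposite strand: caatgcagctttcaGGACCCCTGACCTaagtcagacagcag
Cidec, chr6:113435948-113435988, minus strand, repeat read on the opposite strand: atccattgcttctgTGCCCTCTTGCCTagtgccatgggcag
Fitm1, chr14:55575429-55575469, plus strand, repeat read on the same strand: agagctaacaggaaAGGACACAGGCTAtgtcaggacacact
Plin5, chr17:56117699-56117739, minus strand, repeat read on the same strand: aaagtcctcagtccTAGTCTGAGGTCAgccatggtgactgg
These matches are letters in a window and no measure of binding, and apart from that of Plin2 they have a number of mismatches that at least 24.6% of all windows reach.

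In Vec livers, Cideb and Plin2 were the most abundant of the 10 transcripts per length. Median FPKM values (the deposited levels, scaled for transcript length) were 251 for Cideb and 205 for Plin2, and the ranges of these 2 genes overlapped. Plin5 (38.1), Fitm1 (37.8) and Fitm2 (20.4) followed with overlapping neighbours, and the range of Fitm2 did not overlap that of the next, Plin3 (7.83). Cidec (5.41), Plin4 (3.54), Hilpda (2.63) and Cidea (0.704) came after, each overlapping its neighbour, and Cidec ranged from 3.16 to 95.4 FPKM, across the levels of Plin5, Fitm1 and Fitm2. In Vec+BBR livers the order was another one. Plin2 stood first at 522 FPKM, then Cideb at 229 and Cidec at 168, each without overlap with the next. Fitm1 came after at 60.4 FPKM and Cidea at 41.7 FPKM, and the range of Cidea overlapped those of Fitm1 and of Plin5 (34.5). In shRNA livers the order was Plin2 (230 FPKM, its range overlapping that of Cideb), Cideb (199), Plin5 (60.0), Fitm2 (16.9) and Fitm1 (13.4), and Cidea was again last (0.495). In shRNA+BBR livers Plin2 (386), Cideb (226) and Plin5 (62.2) led, and the range of Plin5 overlapped that of Cidec (38.3).

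The make-up of the coat transcripts changed along with their sum. The 10 FPKM values added up to 679 ± 249 in Vec, 1098 ± 91.0 in Vec+BBR, 544 ± 44.0 in shRNA and 821 ± 102 in shRNA+BBR (SD, n = 5). Plin2 held similar mean shares of that sum, 41.8% ± 7.45, 48.1% ± 2.13, 42.2% ± 2.60 and 46.1% ± 3.57 in the same order. The share of Cideb was 38.0% ± 10.6 in Vec and 21.2% ± 3.002 in Vec+BBR, and 36.2% ± 2.66 and 28.6% ± 4.19 in the knockdown groups. Cidec made up 2.97% ± 3.45 of the sum in Vec and 13.5% ± 2.38 in Vec+BBR, against 1.43% ± 0.451 and 5.62% ± 2.11 with knockdown. Plin5 made up 5.66% ± 1.65 in Vec, 3.09% ± 0.496 in Vec+BBR, 11.03% ± 1.36 in shRNA and 7.68% ± 1.54 in shRNA+BBR. The ratio of Plin5 to Plin2 was therefore 0.141 ± 0.0538, 0.0645 ± 0.0122, 0.262 ± 0.0374 and 0.169 ± 0.0432 in the 4 groups. These shares are described and were not tested, and the depth behind an FPKM value is that of its library.

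**Figure D1:**
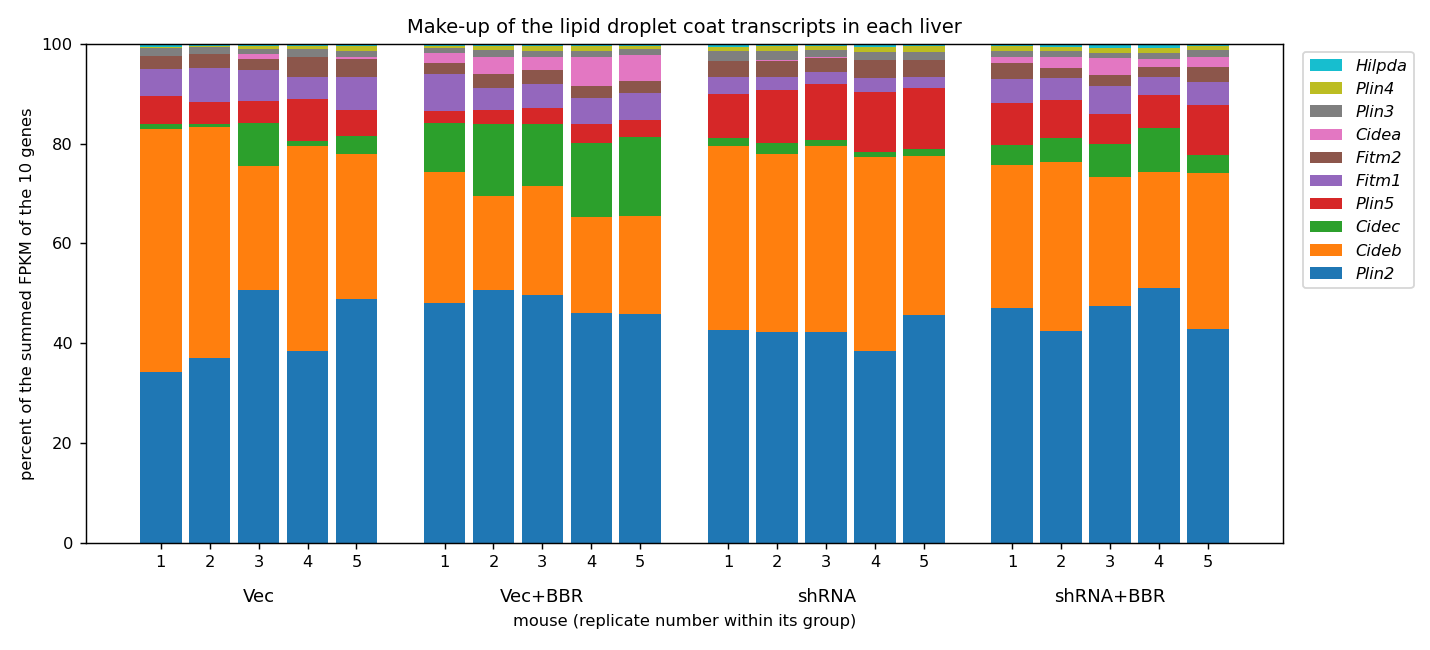
Share of each gene in the summed FPKM of the 10 lipid droplet genes (vertical axis, percent), 1 bar per mouse, with the replicate number within each group on the horizontal axis. Cidec (green) and Cidea (pink) are wider in each BBR group than in the vehicle group of the same vector. Plin5 (red) is wider in shRNA than in Vec and in shRNA+BBR than in Vec+BBR. The Plin5 shares of Vec (up to 8.44%) and shRNA+BBR (from 6.09%) overlap. Vec replicates 3 and 5 have wider Cidec bands than the other 3 Vec mice.

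Counted over the 10 genes, more of them were higher with BBR than with knockdown, in either vector arm. With BBR in vector mice, 4 of 10 were higher (Cidea, Cidec, Plin2 and Plin3) and none was lower, where 7.58% of the 12342 genes tested were higher and 7.88% lower. With BBR in knockdown mice, 5 of 10 were higher (Cidea, Cidec, Plin2, Hilpda and Fitm1) and none was lower, where 8.37% of all genes were higher and 7.28% lower. With knockdown under vehicle, 1 was higher (Plin5) and 3 were lower (Cidea, Cideb and Fitm1), where 5.28% of all genes were higher and 7.91% lower. With knockdown under BBR, 1 was higher (Plin5) and 1 lower (Plin3), where 3.31% were higher and 4.82% lower. With both treatments against Vec, 2 were higher (Cidea and Plin5) and none was lower, where 4.54% were higher and 7.49% lower. A call here is a Benjamini-Hochberg adjusted p under 0.05, over all genes, in the quasi-likelihood test of edgeR. The median log2 fold change of the 10 in these comparisons was 0.46, 0.69, −0.34, −0.40 and 0.47, against medians between −0.0092 and 0.0080 over all genes. The comparisons share groups, so they are not separate evidence of one another. The 10 genes were chosen with earlier results of these data known, so these counts are no independent test of the set.

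**Figure D2:**
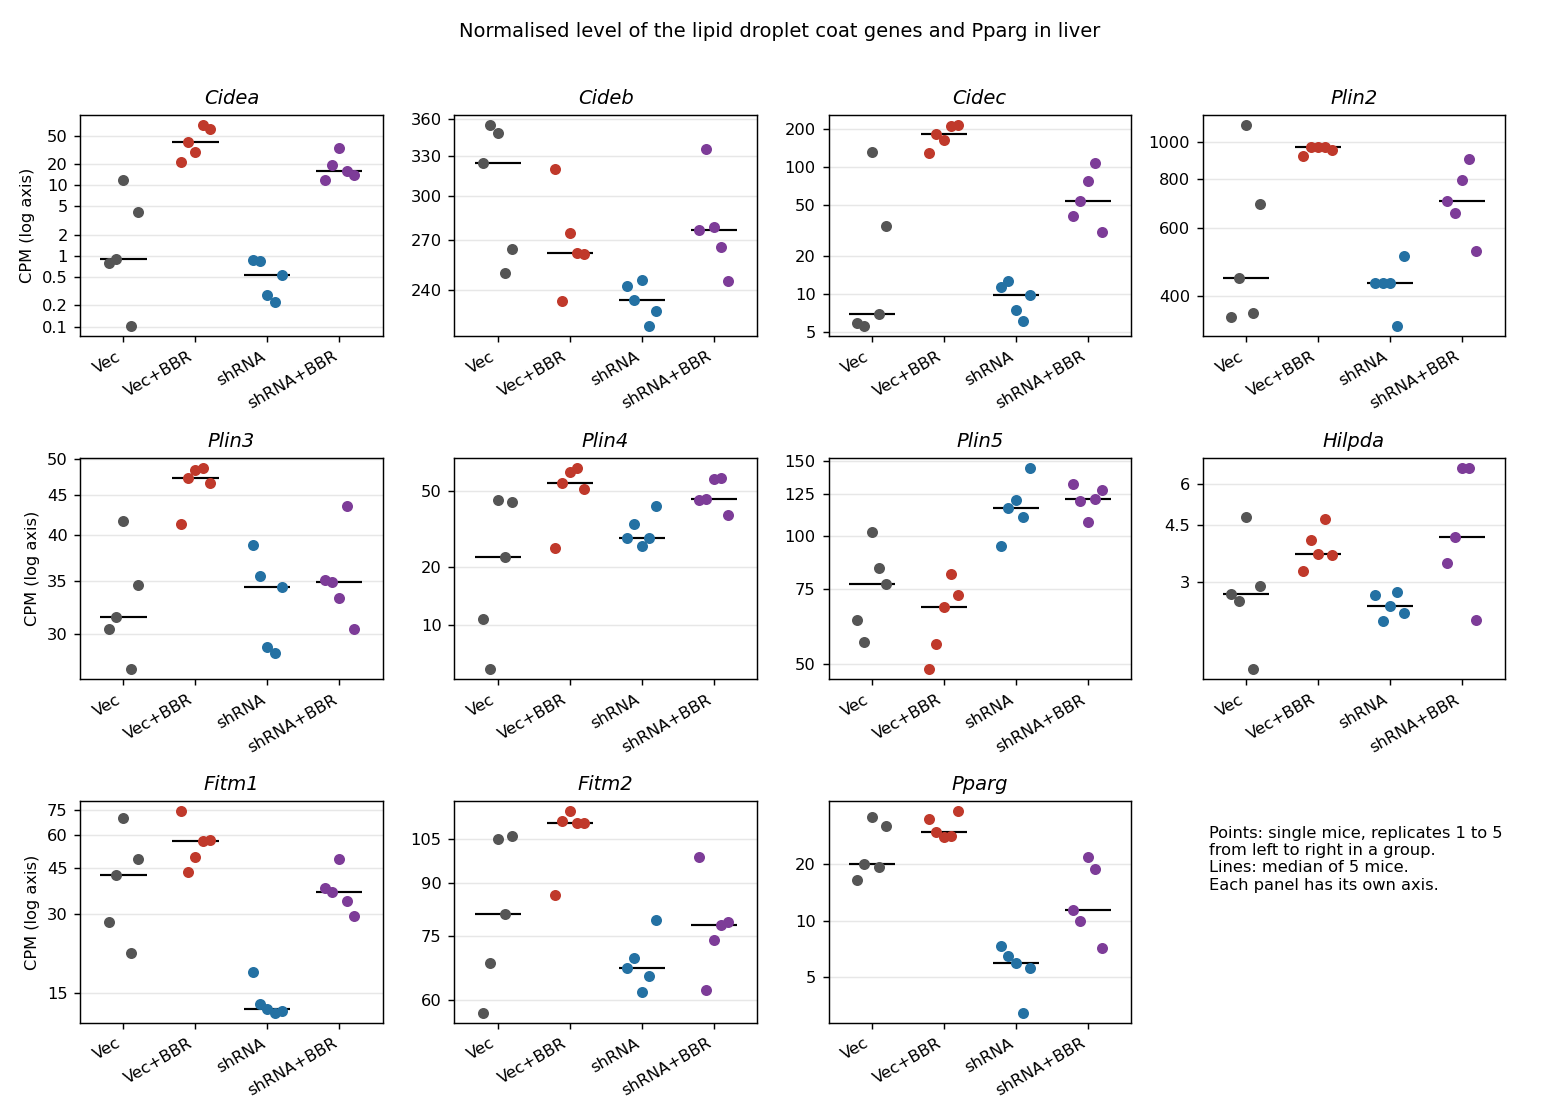
Level of each gene in each mouse as TMM-scaled CPM (vertical log axes, 1 per panel), with 1 point per mouse, replicates from left to right, and the median of 5 as a line. Cidea has all BBR mice above all vehicle mice of the same vector arm, Plin5 has the shRNA+BBR mice above the Vec+BBR mice, and Vec replicate 3 lies highest of its group for Cidea, Cidec and Plin2.

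Among the CIDE genes, Cidea had the largest log2 fold changes of the 10 genes with BBR in either vector arm. Cidea (ENSMUSG00000024526, chromosome 18 from 67343604 to 67367785, plus strand, GRCm38), known from brown fat and hardly expressed in lean liver, had 0.802, 0.900, 11.97, 0.101 and 4.14 CPM in Vec replicates 1 to 5. It had 21.5, 40.8, 29.97, 72.0 and 62.7 CPM in the Vec+BBR replicates. Each Vec+BBR mouse lay above each Vec mouse, which held for 4.70% of all genes in this direction, with a log2 difference of 3.63 (standard error 0.61, edgeR adjusted p = 0.000755). Its levels in Vec replicate 4 rested on 2 counts, under the floor, and those of Vec replicates 3 and 5 on 244 and 88. In knockdown mice Cidea had 0.868, 0.837, 0.282, 0.219 and 0.542 CPM with vehicle and 11.7, 19.6, 33.8, 15.8 and 14.1 CPM with BBR, again without overlap, which held for 5.79% of all genes in this direction. The edgeR log2 fold change there was 5.14 (standard error 0.76, edgeR adjusted p = 0.00156). Knockdown under vehicle gave −2.76 (standard error 0.82, edgeR adjusted p = 0.0304), with ranges that overlapped, and this call was lost in 7 of 27 alternative analyses. Without Vec replicate 3, which had the highest Cidea of its group, the same comparison gave −1.52 (edgeR adjusted p = 0.211). It was also lost without shRNA replicate 3, 4 or 5 (adjusted p = 0.0681, 0.0764 and 0.0582), and with limma-voom, the replicate block or the 2 groups alone (adjusted p = 0.425, 0.0559 and 0.0747). Under BBR the knockdown difference was −1.26 (standard error 0.53, edgeR adjusted p = 0.146) and did not pass, except in a fit of those 2 groups alone (adjusted p = 0.0408). Mice with both treatments had more Cidea than Vec mice, 2.38 (standard error 0.59, edgeR adjusted p = 0.0129) on the log2 scale, a call lost in the fit of 2 groups alone (adjusted p = 0.0838).

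Cidec (ENSMUSG00000030278, chromosome 6 from 113424634 to 113435760, minus strand), the CIDE protein of large droplets in white fat and steatotic liver, split the Vec mice. Vec replicates 1, 2 and 4 had 5.86, 5.59 and 6.95 CPM, while replicates 5 and 3 had 34.1 and 129.6 CPM. The Vec+BBR mice had 129, 182, 161, 208 and 215 CPM, so Vec replicate 3 reached the lowest of them and the groups overlapped by that 1 mouse. BBR in vector mice gave a log2 difference of 2.29 (standard error 0.63, edgeR adjusted p = 0.0186), and without Vec replicate 3 the value was 3.74 (edgeR adjusted p = 4.10e-05). In a fit of these 2 groups alone the call was lost (adjusted p = 0.0773). In the knockdown mice Cidec had 11.3, 12.7, 7.53, 6.18 and 9.83 CPM with vehicle and 40.9, 53.7, 77.9, 107 and 30.7 CPM with BBR, without overlap. The difference was 2.71 (standard error 0.66, edgeR adjusted p = 0.0132) on the log2 scale. All 5 shRNA+BBR mice lay below all 5 Vec+BBR mice, which held for 5.19% of all genes in this direction, but the difference of −1.53 (standard error 0.62, edgeR adjusted p = 0.127) did not pass the test. That value passed without Vec replicate 3, a mouse outside this comparison that enters the shared fit (adjusted p = 0.0229), and in a fit of those 2 groups alone (adjusted p = 0.00734). Knockdown under vehicle gave −1.95 (standard error 0.65, edgeR adjusted p = 0.0520), which moved to −0.49 (adjusted p = 0.547) without Vec replicate 3 and passed without Vec replicate 1, 2 or 4 (adjusted p = 0.0268, 0.0270 and 0.0188), with DESeq2 (adjusted p = 0.0328) and with at least 10 counts in every mouse (adjusted p = 0.0482). Both treatments against Vec gave 0.76 (standard error 0.61, edgeR adjusted p = 0.462), and without Vec replicate 3 this was 2.23 (adjusted p = 0.00311).

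Cideb (ENSMUSG00000022219, chromosome 14 from 55754050 to 55758458, minus strand), the most abundant CIDE transcript in all 4 groups, did not share the increase with BBR. Vec mice had 325, 356, 349, 250.1 and 265 CPM and Vec+BBR mice 320.2, 234, 275, 262 and 261 CPM, a log2 difference of −0.19 (standard error 0.11, edgeR adjusted p = 0.241). It was lower with knockdown under vehicle, with 242, 234, 245, 220.1 and 228 CPM in shRNA mice, every one below every Vec mouse, which held for 5.01% of all genes in this direction. That difference was −0.40 (standard error 0.11, edgeR adjusted p = 0.0174), and it was lost without Vec replicate 2 (adjusted p = 0.0526) or shRNA replicate 4 (adjusted p = 0.0507). The shRNA+BBR mice had 277, 336, 278, 266 and 245 CPM, 0.26 (standard error 0.11, edgeR adjusted p = 0.0959) against shRNA and 0.052 (standard error 0.11, edgeR adjusted p = 0.808) against Vec+BBR, and neither passed. Cideb overlaps Nop9 on the other strand by 1451 bases. The library kit does not mark strand, and Nop9 lay between 12.6 and 22.3 CPM in the 20 mice, well under Cideb. In the same way reads of Plin4 and Hdgfl2 (17 shared bases), and of Cidea (500 bases), Fitm1 (375 bases), Fitm2 (673 bases) and Pparg (13176 bases) and a noncoding transcript on the other strand, cannot be told apart where they overlap.

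Among the perilipins, Plin2 rose in both BBR comparisons by close margins and Plin5 was the 1 member higher in all 3 comparisons of knockdown mice with vector mice. Plin2 (ENSMUSG00000028494, chromosome 4 from 86648386 to 86670060, minus strand), the main perilipin of hepatocytes, had 353, 443, 1107, 359.9 and 692 CPM in Vec mice. It had 917, 972, 972, 967 and 950.5 CPM in Vec+BBR mice, a range narrow enough that Vec replicate 3 lay above it and the other 4 Vec mice below. The difference was 0.69 (standard error 0.23, edgeR adjusted p = 0.0491), and the call was lost in 20 of 28 alternatives. Of the 20 fits without 1 mouse, it held only in those without Vec replicate 3 or 5 or shRNA+BBR replicate 4 or 5. Without Vec+BBR replicate 3, the library with muscle and adipocyte traces, it was 0.69 (adjusted p = 0.0807), and without Vec replicate 3 it was 1.04 (adjusted p = 0.000487). In knockdown mice Plin2 had 432, 430.3, 431, 334 and 507 CPM with vehicle and 704, 653, 795, 901 and 521 CPM with BBR. These 2 groups did not overlap, and the difference of 0.74 (standard error 0.23, edgeR adjusted p = 0.0375) was lost without any 1 of shRNA replicates 1 to 4 or shRNA+BBR replicates 2 to 4, at adjusted p of up to 0.0939. All 5 shRNA+BBR mice lay below the Vec+BBR mice, yet the knockdown differences under BBR, −0.42 (standard error 0.23, edgeR adjusted p = 0.278), and under vehicle, −0.47 (standard error 0.23, edgeR adjusted p = 0.190), did not pass. Both treatments against Vec gave 0.27 (standard error 0.23, edgeR adjusted p = 0.492), which passed without Vec replicate 3 at 0.63 (adjusted p = 0.0192).

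Plin5 (ENSMUSG00000011305, chromosome 17 from 56111601 to 56117596, minus strand), a perilipin of oxidative tissues that links droplets to mitochondria, had 63.3, 56.5, 102, 84.0 and 77.2 CPM in Vec and 94.8, 116, 122, 111 and 144 CPM in shRNA mice. The groups overlapped by Vec replicate 3 and shRNA replicate 1, and the difference was 0.62 (standard error 0.15, edgeR adjusted p = 0.00938). Under BBR the vector mice had 48.6, 55.8, 68.0, 81.3 and 72.5 CPM and the knockdown mice 132, 121, 108, 122 and 128 CPM. Every knockdown mouse was higher, which held for 3.28% of all genes in this direction, with 0.90 (standard error 0.15, edgeR adjusted p = 0.00126). The shRNA+BBR mice were also all above the Vec mice, which held for 2.50% of all genes in this direction, with 0.67 (standard error 0.15, edgeR adjusted p = 0.00635). These 3 calls held in all 28 alternative analyses of each. BBR gave −0.23 (standard error 0.15, edgeR adjusted p = 0.313) in vector mice and 0.056 (standard error 0.15, edgeR adjusted p = 0.817) in knockdown mice, and neither passed.

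Plin4 (ENSMUSG00000002831, chromosome 17 from 56100591 to 56109803, minus strand), a perilipin of adipocytes that coats new droplets, lies 1797 bases from Plin5. In the edgeR fit of all 4 groups Plin5 was called with knockdown and Plin4 in no comparison, and a difference between the 2 neighbours was not tested. With group means removed they had r = 0.72 over the 20 mice. Plin4 had 10.7, 5.85, 44.9, 22.5 and 43.8 CPM in Vec and 25.2, 54.8, 62.5, 65.9 and 51.3 CPM in Vec+BBR mice, a difference of 1.02 (standard error 0.37, edgeR adjusted p = 0.0674). It did not pass in that fit and did in 5 of 28 alternatives, among them the fits without Vec replicate 3 (1.30, adjusted p = 0.0200) and without Vec replicate 5 or Vec+BBR replicate 1 (adjusted p = 0.0242 and 0.0343). Knockdown mice had 28.2, 33.6, 25.6, 28.5 and 41.6 CPM with vehicle and 44.6, 45.1, 57.5, 58.7 and 37.4 CPM with BBR, a log2 difference of 0.63 (standard error 0.37, edgeR adjusted p = 0.238) that passed in a fit of those 2 groups alone (adjusted p = 0.0156). The knockdown differences were 0.30 (edgeR adjusted p = 0.634) under vehicle and −0.094 (edgeR adjusted p = 0.906) under BBR. Both treatments against Vec gave 0.92 (edgeR adjusted p = 0.112), and this passed without Vec replicate 3 (adjusted p = 0.0333) or Vec replicate 5 (adjusted p = 0.0451) and with limma-voom (adjusted p = 0.0411).

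Plin3 (ENSMUSG00000024197, chromosome 17 from 56277476 to 56292873, minus strand), a perilipin of most tissues that moves from the cytosol onto new droplets, changed little but evenly. Vec mice had 30.5, 31.6, 41.7, 27.1 and 34.6 CPM, and 4 of 5 Vec+BBR mice lay above all of them at 41.3, 47.2, 48.4, 48.7 and 46.6 CPM. The difference of 0.49 (standard error 0.11, edgeR adjusted p = 0.00679) held in all 28 alternatives. Knockdown mice had 38.9, 35.5, 28.9, 28.4 and 34.4 CPM with vehicle and 35.1, 34.9, 33.3, 43.5 and 30.4 CPM with BBR, a difference of 0.095 (standard error 0.11, edgeR adjusted p = 0.588) that did not pass. Knockdown under BBR gave −0.39 (standard error 0.11, edgeR adjusted p = 0.0377), lost in 9 of 28 alternatives, and without Vec+BBR replicate 3 it was −0.37 (adjusted p = 0.0790). The other mice whose removal ended that call were Vec+BBR replicates 2, 4 and 5 and shRNA+BBR replicates 1, 2, 3 and 5, with a largest adjusted p of 0.0913 without shRNA+BBR replicate 3, and it was also lost with the replicate block (adjusted p = 0.0697). Knockdown under vehicle gave 0.0042 (edgeR adjusted p = 0.986) and both treatments against Vec gave 0.099 (edgeR adjusted p = 0.630).

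Hilpda (ENSMUSG00000043421, chromosome 6 from 29272488 to 29275446, plus strand), induced by hypoxia and by fatty acids, was low in every group. It had 2.76, 2.64, 4.76, 1.62 and 2.92 CPM in Vec and 3.25, 4.03, 3.66, 4.69 and 3.62 CPM in Vec+BBR mice, a difference of 0.39 (standard error 0.26, edgeR adjusted p = 0.337) that did not pass. In knockdown mice it had 2.74, 2.29, 2.54, 2.80 and 2.42 CPM with vehicle and 3.44, 4.14, 6.72, 6.71 and 2.30 CPM with BBR. There 4 of 5 BBR mice lay above all vehicle mice, with 0.86 (standard error 0.26, edgeR adjusted p = 0.0301). Replicates 3 and 4 carried most of that difference, and without either it was 0.70 (adjusted p = 0.104) and 0.70 (adjusted p = 0.0860). It was also lost without shRNA replicate 1, 2, 4 or 5, at adjusted p between 0.0506 and 0.0620, and with limma-voom (adjusted p = 0.0570). The knockdown differences were −0.20 (edgeR adjusted p = 0.653) and 0.28 (edgeR adjusted p = 0.533), and both treatments against Vec gave 0.66 (edgeR adjusted p = 0.0986), which passed without Vec replicate 3 (adjusted p = 0.0179) or shRNA+BBR replicate 5 (adjusted p = 0.0271).

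The FITM genes, which act in droplet formation at the endoplasmic reticulum, differed from each other. Fitm1 (ENSMUSG00000022215, chromosome 14 from 55575617 to 55576954, plus strand), the family member known from muscle, had 27.9, 42.1, 69.7, 21.2 and 48.7 CPM in Vec and 18.05, 13.6, 13.01, 12.6 and 12.7 CPM in shRNA mice, without overlap. The difference of −1.58 (standard error 0.24, edgeR adjusted p = 0.000151) held in all 28 alternatives. BBR in knockdown mice brought it to 37.9, 36.4, 48.5, 33.5 and 29.5 CPM, again without overlap, and the difference of 1.41 (standard error 0.24, edgeR adjusted p = 0.00244) also held in all 28. In vector mice with BBR it was 74.2, 43.4, 49.5, 56.9 and 57.8 CPM, a difference of 0.43 (standard error 0.23, edgeR adjusted p = 0.215) that passed without Vec replicate 3 (0.68, adjusted p = 0.0243). The 49.5 CPM are those of Vec+BBR replicate 3, which held the muscle transcripts, and a part of muscle RNA in its Fitm1 level was not tested. Knockdown under BBR gave −0.60 (standard error 0.23, edgeR adjusted p = 0.105), which passed without Vec replicate 4 (adjusted p = 0.0491) and in a fit of those 2 groups alone (adjusted p = 0.0338), and both treatments against Vec gave −0.17 (standard error 0.23, edgeR adjusted p = 0.679).

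Fitm2 (ENSMUSG00000048486, chromosome 2 from 163466379 to 163472629, minus strand), the family member of most tissues, passed in no comparison. It had 57.4, 68.1, 105, 81.0 and 106 CPM in Vec, 86.4, 112, 116, 111 and 111 CPM in Vec+BBR, 66.9, 69.5, 61.6, 65.2 and 79.3 CPM in shRNA and 98.4, 62.1, 73.9, 77.7 and 78.6 CPM in shRNA+BBR mice, and the 2 groups overlapped in each of the 5 comparisons. BBR in vector mice gave 0.36 (edgeR adjusted p = 0.1005), which passed without Vec replicate 3 (0.45, adjusted p = 0.0411) or Vec replicate 5 (adjusted p = 0.0368). Knockdown under BBR gave −0.45 (edgeR adjusted p = 0.0592), which passed in 6 of 28 alternatives, among them those without Vec replicate 1 or 5, Vec+BBR replicate 1 or shRNA+BBR replicate 1 (adjusted p from 0.0303 to 0.0476). The other values were 0.19 (edgeR adjusted p = 0.377) for BBR in knockdown mice, −0.28 (edgeR adjusted p = 0.206) for knockdown under vehicle and −0.095 (edgeR adjusted p = 0.736) for both treatments.

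**Figure D3:**
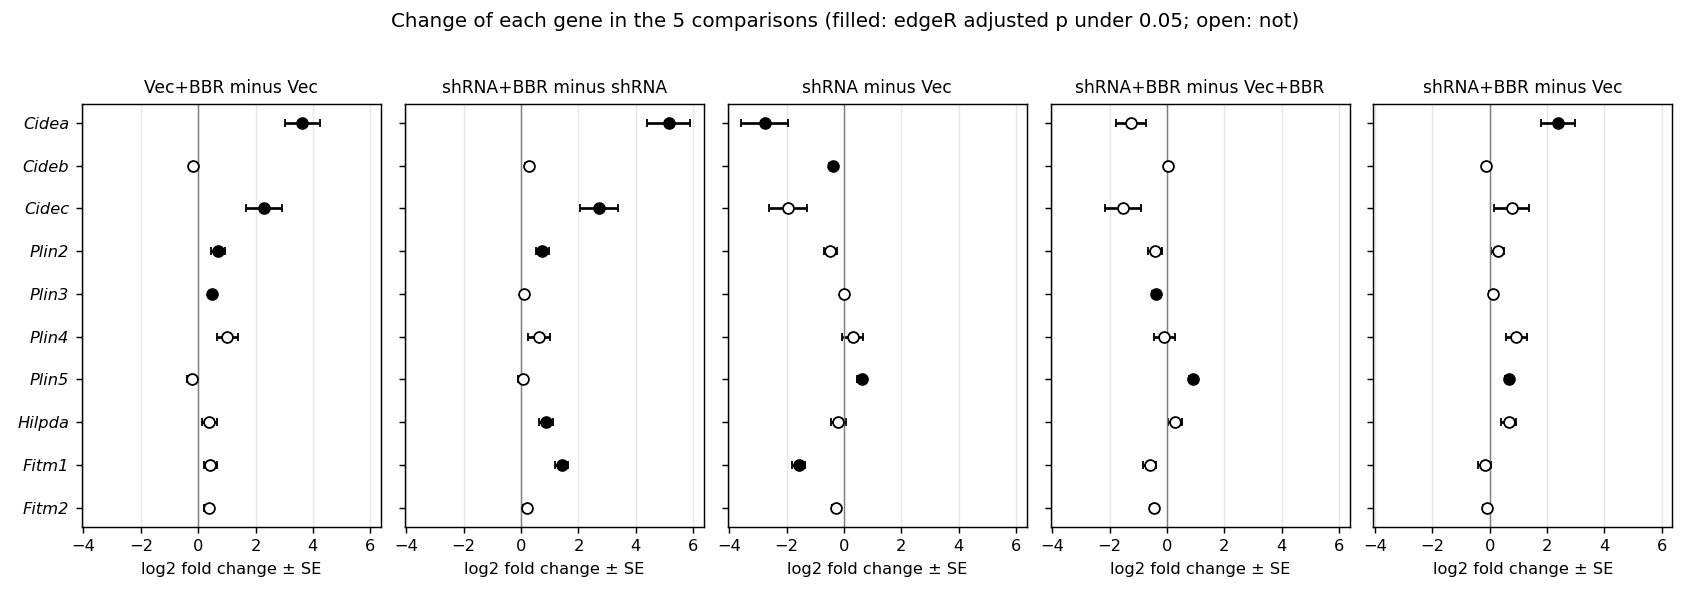
Log2 fold change with its standard error (horizontal axes) for the 10 genes in the 5 comparisons of 2 groups, with filled points where the edgeR adjusted p was under 0.05. Cidea and Cidec lie far to the right in both BBR panels, and Plin5 is filled and to the right of 0 in the 3 panels that set knockdown mice against vector mice, with Cidea filled farther right in the panel of both treatments.

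Whether BBR acted differently in the presence of the knockdown was tested as an interaction, the BBR difference in knockdown mice minus that in vector mice. None of the 10 genes passed in edgeR, where 0.146% of all genes did, and none passed in DESeq2 or limma-voom. Without adjustment, 3 of the 10 had a p under 0.05, as had 18.5% of all genes. These were Fitm1 with 0.98 (standard error 0.33, edgeR adjusted p = 0.135), Cideb with 0.45 (standard error 0.15, edgeR adjusted p = 0.139) and Plin3 with −0.39 (standard error 0.16, edgeR adjusted p = 0.207). For Cidea and Cidec the interaction was 1.51 (standard error 1.00, edgeR adjusted p = 0.417) and 0.42 (standard error 0.88, edgeR adjusted p = 0.827), and these wide errors leave differences of 1 log2 unit undetectable here. The sign for Cidec and Plin2 turned under some alternatives, to −1.03 and −0.29 without Vec replicate 3. A gene called in 1 vector arm and not in the other, such as Plin3, Hilpda or Fitm1, was therefore not shown to differ between the arms.

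Over the 20 mice with group means removed, more Pparg went with more Cidec and Plin2, but not within every group. After the mean of each group was removed from the log2 CPM of the 20 mice, Pparg and Cidec correlated with Pearson's r = 0.72 (permutation p = 0.000230) and Spearman's rho = 0.85 (permutation p = 0.000490). For Plin2 these were 0.76 (permutation p = 0.000270) and 0.83 (permutation p = 0.00109). The p-values are two-sided, from 100000 shuffles of the mice within their groups, and they are part of a family of 10 genes. Without the 2 mice whose Pparg lay farthest from its median, shRNA+BBR replicates 3 and 5, r was 0.76 and 0.78. Cidec and Pparg deviated to the same side of their group means in 16 of 20 mice, and Plin2 and Pparg in 14 of 20. This count does not set Plin2 apart, since it was 15 for Cidea and 14 for Plin3. The Vec+BBR group did not follow. Its replicates 5 and 1 had its most Pparg (38.3 and 34.8 CPM) and its least Plin2 (950.5 and 917 CPM). These mice had the highest and the lowest Cidec of that group (215 and 129 CPM).

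The remaining members ranked below Cidec and Plin2 by r and by rho. Hilpda had r = 0.65 and rho = 0.46 (permutation p = 0.0206 and 0.0950), which dropped to r = 0.45 without the 2 mice. Fitm1 had r = 0.64 and rho = 0.66 (permutation p = 0.00299 and 0.00539, r = 0.59 without the 2 mice). Plin3 had r = 0.63 and rho = 0.63 (permutation p = 0.0114 and 0.0100, r = 0.72). For Cidea r was 0.59 and rho 0.64 (permutation p = 0.00474 and 0.00710, r = 0.62). Plin4 (0.46), Fitm2 (0.35), Cideb (0.13) and Plin5 (0.072) had permutation p for r between 0.0525 and 0.756. Values within 1 vector arm are not given, since vehicle and BBR mice form separate clusters there.

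Fitted to all genes as a slope on the log2 level of Pparg beside the 4 group means, Plin2 and Cidec passed in edgeR, 2 of 10 members, where 0.559% of all genes had a positive slope that passed. The slope was 0.66 (standard error 0.13, edgeR adjusted p = 0.0324) for Plin2 and 1.75 (standard error 0.38, edgeR adjusted p = 0.0405) for Cidec, in log2 units per log2 unit of Pparg. Both calls were close, and they were lost in 8 and 12 of 25 alternatives. The mice whose removal ended both were Vec replicates 1, 2, 3 and 5, shRNA replicate 1 and shRNA+BBR replicates 4 and 5, and without Vec replicate 3 the slopes were 0.49 (adjusted p = 0.0781) and 1.24 (adjusted p = 0.0693). The call of Cidec was also lost without Vec replicate 4, Vec+BBR replicate 2, shRNA replicate 2 or shRNA+BBR replicate 1. Hilpda, Fitm1, Plin3 and Cidea followed with slopes of 0.60 (edgeR adjusted p = 0.0960), 0.55 (edgeR adjusted p = 0.0846), 0.25 (edgeR adjusted p = 0.127) and 1.29 (edgeR adjusted p = 0.145). Hilpda and Fitm1 passed without shRNA replicate 4 (adjusted p = 0.0211 and 0.0470) and Plin3 without shRNA+BBR replicate 3 (adjusted p = 0.0487). Plin5 had a slope of 0.046 (edgeR adjusted p = 0.915) and Cideb of 0.041 (edgeR adjusted p = 0.887).

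**Figure D4:**
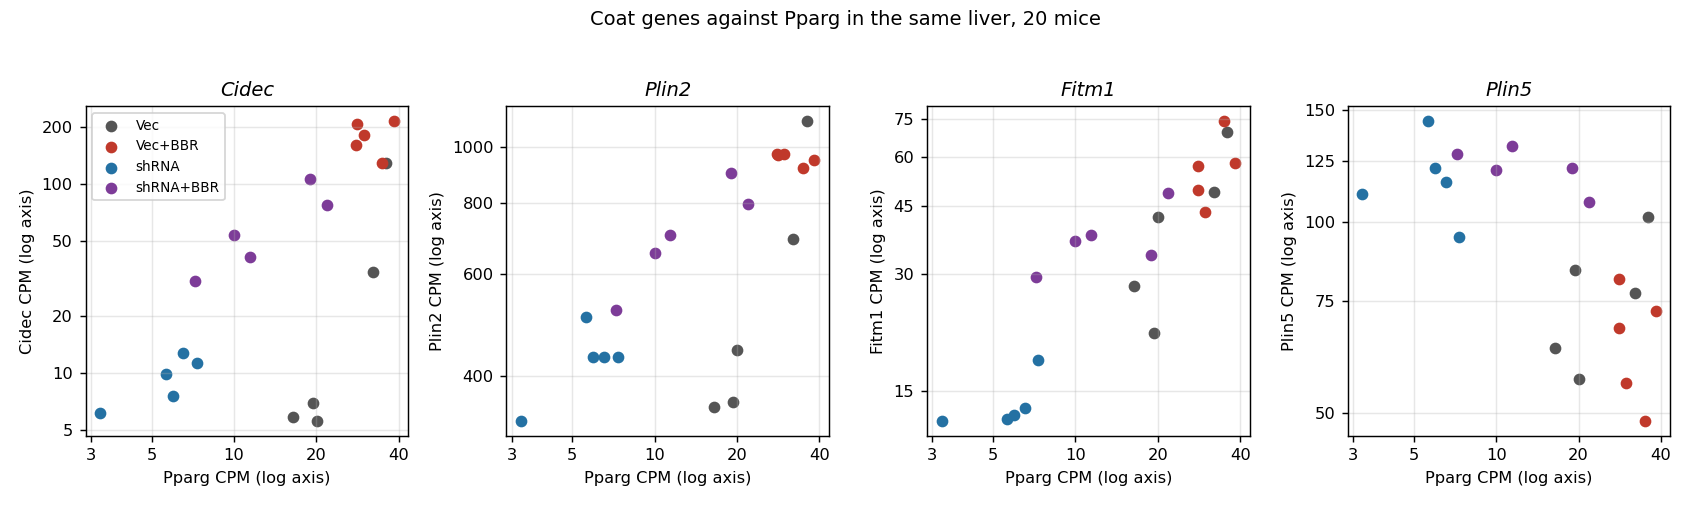
Level of Cidec, Plin2, Fitm1 and Plin5 (vertical log axes, CPM) against that of Pparg in the same mouse (horizontal log axis, CPM), with 1 point per mouse and colours for the 4 groups. Within Vec, the 2 mice with the most Pparg (replicates 3 and 5) have the most Cidec and Plin2, and the shRNA+BBR mice have more Cidec than Vec replicates 1, 2 and 4 at similar or lower Pparg.

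Pparg level alone did not order the mice across groups. Vec replicates 1, 2 and 4 had between 16.4 and 20.1 CPM of Pparg and at most 6.95 CPM of Cidec. All 5 shRNA+BBR mice had at least 30.7 CPM of Cidec, with Pparg between 7.19 and 21.8 CPM. Vec replicates 3 and 5, with 35.9 and 32.1 CPM of Pparg, were the 2 highest Vec mice for Cidea, Cidec, Plin2, Plin3, Plin4, Fitm1, Fitm2 and Hilpda, but not for Cideb or Plin5. Vec replicate 3 lay above the lowest Vec+BBR mouse for every member but Cidea, although it had received vehicle.

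From mouse to mouse, with the group means removed, pairs of members had r from −0.45 to 0.94 over the 20 mice. The highest were Cidec with Plin2 (0.94), Cidea with Cidec (0.85), Cidea with Plin2 (0.81) and Cidec with Plin4 (0.78), and the neighbours Plin4 and Plin5 had 0.72. Cideb had negative values with Fitm2 (−0.45) and Plin4 (−0.42). These are descriptions of 20 libraries that share depth and tissue make-up, with no test. The 5 genes outside the set with the highest r to Cidec were Tubb2a, Vegfb, Pltp, Spire2 and Wfdc2 (0.93 to 0.94), and to Plin2 they were Slc25a10, Vegfb, Rnpepl1, Crat and Pla2g6 (0.93 to 0.94). For Cidea they were Ly6d, Col4a1, Ephb2, Mogat1 and Scd1 (0.87 to 0.89), and for Fitm1 Lgals1, Acaa1b, Fabp1, Hormad2 and Mogat1 (0.89 to 0.92). For Plin5 the values were lower and led by Cdkn1a (0.88), Slc45a3 (0.85) and Arntl (0.80), and for Cideb they were led by Alad (0.95) and Trappc3 (0.94).

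Other lists of the same pathway were read in the same way. Of the 12342 genes tested, 7.58% were higher and 7.88% lower with BBR in vector mice, and 8.37% and 7.28% with BBR in knockdown mice. With knockdown under vehicle these shares were 5.28% and 7.91%, with knockdown under BBR 3.31% and 4.82%, and with both treatments 4.54% and 7.49%. In lists this short some of the counts below are near these shares, and no list was tested as a set. Of 19 tested genes for droplet assembly and other droplet proteins, 4 were higher and 2 lower with BBR in vector mice. Hsd17b13, a droplet protein of hepatocytes linked to fatty liver, rose by 0.98 (standard error 0.12, edgeR adjusted p = 5.69e-05) on the log2 scale and Acsl3, an acyl-CoA synthetase of new droplets, by 0.69 (edgeR adjusted p = 0.0112). In knockdown mice BBR gave 0 higher and 1 lower (Rab3gap1, −0.42 (edgeR adjusted p = 0.00838)), and knockdown under vehicle gave 1 higher and 3 lower, among the latter Bscl2, the seipin gene, at −0.33 (edgeR adjusted p = 0.00324) and Mettl7b at −0.60 (edgeR adjusted p = 0.000473). None passed with knockdown under BBR, and 1 was higher and 3 lower with both treatments. Of 8 lipolysis genes, none passed with BBR in vector mice or with knockdown under BBR, and 3 were higher with BBR in knockdown mice. These were Abhd5, the co-activator of ATGL (0.38 (edgeR adjusted p = 0.00694)), Mgll, which splits monoglyceride (0.65 (edgeR adjusted p = 0.0263)), and G0s2, an inhibitor of ATGL (0.77 (edgeR adjusted p = 0.0276)). With knockdown under vehicle, Abhd5 (−0.45 (edgeR adjusted p = 0.000759)) and Lipe, the hormone-sensitive lipase (−0.43 (edgeR adjusted p = 0.0303)), were lower, and Lipe was also lower with both treatments (−0.53 (edgeR adjusted p = 0.0115)).

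Of 13 triglyceride synthesis genes, Mogat1, a monoacylglycerol acyltransferase, was higher with BBR in both arms, at 1.82 (standard error 0.37, edgeR adjusted p = 0.00258) and 2.45 (standard error 0.39, edgeR adjusted p = 0.00207). With BBR in vector mice 3 others were lower, Agpat2 (−0.57 (edgeR adjusted p = 0.00624)), Mogat2 (−1.20 (edgeR adjusted p = 0.0379)) and Gpat4 (−0.64 (edgeR adjusted p = 0.0421)). Mogat2 (−1.40 (edgeR adjusted p = 0.0206)) and Mogat1 (−1.28 (edgeR adjusted p = 0.0340)) were lower with knockdown under vehicle, none passed with knockdown under BBR, and Mogat1 was higher with both treatments (1.16 (edgeR adjusted p = 0.0421)). Of 11 hypoxia response genes, none passed with BBR in vector mice, while P4ha1 rose with BBR in knockdown mice (0.74 (edgeR adjusted p = 0.0230)) and Vegfa with knockdown under vehicle (0.29 (edgeR adjusted p = 0.0219)). Of 16 genes typical of PPARα, 3 were higher and 1 lower with BBR in vector mice, and 5 were higher with BBR in knockdown mice, led by Vnn1 (1.17 (edgeR adjusted p = 0.00270)). Knockdown under vehicle gave 1 higher and 4 lower, knockdown under BBR 2 and 2, and both treatments 1 and 0. The shares over all genes given with the first of these lists apply here too, and no difference between lists was tested.

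Markers of other cells moved along with some of these results. Their counts of calls stand beside the same shares over all genes as the lists above, and no marker list was tested as a set. The summed level of the 6 white adipocyte markers was 0.101 to 1.03 CPM in Vec, 1.25 to 6.50 in Vec+BBR, 0 to 0.366 in shRNA and 0.958 to 5.54 in shRNA+BBR. In the BBR groups most of it came from Cfd, the 1 of 6 that could be tested (3.22 (edgeR adjusted p = 0.00428) and 5.28 (edgeR adjusted p = 0.00226) with BBR). Cfd had median counts of 5 in Vec, 51 in Vec+BBR, 1 in shRNA and 72 in shRNA+BBR, and Retn had 2, 7, 0 and 2 in the same order. Adrb3 had a median of 2 in each group, and Adipoq, Lep and Plin1 were at or near 0 outside Vec+BBR replicate 3, as given above. Whether adipocytes hold a part of the coat transcripts was not tested. The 6 stellate cell markers summed to 145 to 251.995 CPM in Vec and 277 to 291 in Vec+BBR, with 2 of 6 higher, and to 190 to 245 and 229 to 305 in shRNA and shRNA+BBR, with 2 of 6 higher. The 5 endothelial markers summed to 62.6 to 83.0 CPM in Vec and 79.6 to 121 CPM in the other 3 groups, with 2 of 5 higher with BBR in vector mice, and 1 higher and 2 lower with BBR in knockdown mice. Of 6 macrophage markers, Cd68 was higher with BBR in both arms, and of 7 hepatocyte markers 3 were lower with BBR in vector mice and 2 in knockdown mice. With knockdown under vehicle, 3 of 5 endothelial markers were higher, and Cd68, the stellate marker Col1a1 and 1 of 7 hepatocyte markers were lower. Knockdown under BBR gave 1 of 6 stellate markers lower. Both treatments against Vec gave 2 of 5 endothelial markers and Cfd higher, and 1 of 7 hepatocyte markers lower. Elovl3, the brown adipocyte marker that liver also expresses, was higher with BBR in knockdown mice (0.95 (edgeR adjusted p = 0.0260)) and lower with knockdown under vehicle (−1.09 (edgeR adjusted p = 0.0115)). None of 4 cholangiocyte markers passed in any comparison, the 6 muscle and 5 pancreas markers were too low to test, and of the other PPAR receptors neither Ppara nor Ppard passed. The part of these shifts in the results was not tested, and in bulk tissue fewer cells of a type and less RNA per cell cannot be told apart.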

How the data were processed

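Bulk RNA sequencing of polyadenylated liver RNA (NEBNext Ultra kit, which does not mark strand, Illumina NovaSeq6000) was read from the deposited tables of 20 mice in 4 groups of 5. Per the file headers, the authors deposited an expected count for each gene, not normalized, in which reads matching more than 1 gene are shared out, and an FPKM value scaled for transcript length and library size. Whole numbers made up 91.9% to 93.3% of the count values per library. The aligner and the counting program are not given in the sources used here, and the submitters' processing notes name mm10. Groups were taken from the treatment labels.

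Expected counts were rounded to whole numbers, 12342 of 22298 genes passed filterByExpr (minimum count 10, minimum total 15), and TMM factors lay between 0.873 and 1.14. A mean for each group was fitted with the quasi-likelihood test of edgeR 4.0.16 (R 4.3.3), with Benjamini-Hochberg adjustment over all genes and a threshold of 0.05. The biological coefficient of variation was 0.177 and the prior degrees of freedom 4.88. The slope on Pparg was fitted in the same way to 12341 genes. Correlations used log2 CPM with a prior count of 2 and 100000 permutations within groups in Python 3.11.15 with scipy 1.17.1, and 30 relations with Pparg were computed, of which the 10 over all mice are given. The fits were also run on counts simulated from the model that edgeR assumes. That run does not show how they behave with outlying mice such as Vec replicate 3. None of the 40 pairs of libraries within groups agreed within sampling noise (chi-square per gene of at least 15.1).

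The members and gene lists were chosen with earlier results of these data known. The text names all 10 members, Pparg, up to 4 genes per list and comparison with the lowest adjusted p, and the 5 genes most correlated with a member. Alternatives were DESeq2 1.42.0, limma-voom (limma 3.58.1), DESeq2 size factors, other filters, no mitochondrial genes (taken as those on the mitochondrial chromosome of GENCODE M21, which also gives all gene positions on GRCm38, since the files give them no symbol), a replicate block, fits of 2 groups alone and each mouse left out, and for the correlations a prior count of 0.5 or log2 of FPKM plus 0.1.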

Additional observations from a re-analysis of the deposited data

Results flagged for a closer look

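Of the 40 sets of 5 values that the 10 genes form in the 4 groups, 4 held a mouse whose gap to the nearest other, divided by the whole range, was above Dixon's critical value of 0.710 for 5 samples. Chance alone gives this in about 1 in 20 such sets. Cidec in Vec replicate 3 was 129.6 CPM, where the next mouse had 34.1 CPM and the lowest 5.59 CPM. Plin3 in Vec+BBR replicate 1 was 41.3 CPM, below the next at 46.6 CPM and the highest at 48.7 CPM. Fitm1 in shRNA replicate 1 was 18.05 CPM, above the next at 13.6 CPM and the lowest at 12.6 CPM. Fitm2 in Vec+BBR replicate 1 was 86.4 CPM, below the next at 110.8 CPM and the highest at 115.6 CPM. Vec+BBR replicate 1 was the mouse in 2 of the 4.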

How the results depend on the processing

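Calls of Plin5 with knockdown, of Fitm1 with knockdown under vehicle and with BBR in knockdown mice, of Cidea and Cidec with BBR in knockdown mice and of Cidea and Plin3 with BBR in vector mice held in every alternative that could be fitted. The number of genes called for the interaction went from 18 to 330 with DESeq2 and 11 with limma-voom, and no member passed in either. With the replicate block, the genes called for the Pparg slope went from 78 to 0 and the members from 2 to 0 (Cidec adjusted p = 0.224, Plin2 adjusted p = 0.214), and the members called with knockdown under BBR went from 2 to 1. Replicate numbers do not mark a shared source in the labels, and between 0 and 3 of 5 same-numbered pairs correlated above 0.1. At most 5 of 10 mice correlated best with their own number, so the block is not read as pairing. In fits of only the 2 groups compared, calls with BBR in vector mice went from 1908 to 1178 genes and from 4 to 2 members, those with both treatments against Vec from 1485 to 541 genes and from 2 to 1 member, and members with knockdown under BBR from 2 to 6. With at least 10 counts in every mouse, Cidea was not tested and members with both treatments went from 2 to 1. The interaction of Cidec turned from 0.42 to −0.80 (limma-voom) and −0.31 (replicate block), and that of Plin2 from 0.051 to −0.11 and −0.027. The cause of these changes was not tested, apart from the filter.

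With each mouse left out, genes and members called ranged from 1237 to 2395 and 3 to 7 for BBR in vector mice, 661 to 2527 and 3 to 5 for BBR in knockdown mice, 1015 to 2284 and 2 to 5 for knockdown under vehicle, 538 to 1217 and 1 to 3 for knockdown under BBR, 849 to 1892 and 2 to 6 for both treatments, 0 to 275 and 0 to 4 for the Pparg slope, and 5 to 122 and 0 to 0 for the interaction. The 7 and 6 members were those without Vec replicate 3, and the 2 with knockdown under vehicle those without shRNA replicate 4. The lowest gene counts were those without Vec replicate 2 (1237 and 849), shRNA+BBR replicate 3 (661), shRNA replicate 4 (1015), shRNA+BBR replicate 2 (538), Vec+BBR replicate 4 (5) and, for the slope, Vec replicate 3 or shRNA+BBR replicate 5 (0). Values that changed sign when a mouse was left out were not called. The interaction of Cidec ran from −1.03 to 0.70 and that of Plin2 from −0.29 to 0.20. The others ran from −0.059 to 0.10 for Plin3, −0.36 to 0.045 for Hilpda with knockdown under vehicle, −0.25 to 0.0063 for Plin4, −0.0096 to 0.14 for Cideb with knockdown under BBR, −0.013 to 0.14 for Plin5 with BBR in knockdown mice, −0.34 to 0.095 for Fitm1, −0.20 to 0.0049 for Fitm2 with both treatments, −0.052 to 0.12 for the slope of Plin5 and −0.013 to 0.086 for that of Cideb. Depth limits Cidea in vehicle mice (2 to 244 counts) and Hilpda (1.62 to 6.72 CPM).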
